A study of Rattus norvegicus with 6 samples.

Results

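The MYC, MAX and MXD network comprised the 10 genes Myc, Mycn, Mycl, Max, Mxd1, Mxd3, Mxd4, Mxi1, Mnt and Mga. They were picked by gene name from the 32883 genes of the deposited count table, with the fall of Mycl after treatment already known, and all 10 were among the 14670 genes with enough counts to be tested. Oligodendrocyte precursor cells (OPCs) were grown from the cerebral cortices of 2 newborn Sprague Dawley rats (P0 to P2 in the methods) with no genetic change. They were shaken off the mixed culture and kept in serum-free medium. Whether the libraries shared animals is not stated. The cells received 5 µM ZJU-37, a RIPK1 kinase inhibitor made by modifying the compound Nec-1s, or the same volume of its solvent DMSO, with 3 poly-A RNA libraries per group. The sample labels give 36 h of treatment and the methods text a shorter time. The study calls the libraries both biological repeats and plate wells, so the errors below measure the spread between these libraries, which may be technical. Between 13935865 and 24097927 counts were assigned to genes per library. At these depths 3 counts correspond to at most 0.215 CPM, a limit that covers counting error only. CPM is the count scaled to library size, here on the TMM scale, which corrects for library composition, and ± gives the SD of 3 libraries.

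MYC proteins activate transcription as dimers with MAX, which bind the E-box CACGTG. MXD proteins and MNT compete for the same partner and repress E-box genes through SIN3 corepressors and histone deacetylases, and MGA joins MAX to a Polycomb complex. Among the MXD genes, Mxd1, Mxi1 and Mxd4 are known to rise when cells leave the cycle and differentiate, whereas Mxd3 is known from cycling cells. MYC activity is known to sustain division in OPCs.

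The cultures carried OPC genes, since all 7 listed OPC markers were detected and summed to between 3854 and 4472 CPM with DMSO and between 4408 and 6070 CPM with ZJU-37. These ranges overlapped, and the markers went both ways. In the fit over all genes 4 were called higher and 2 lower with ZJU-37, where 9.43% and 5.58% of all tested genes were. RNA of other cells was present as well. The 7 oligodendrocyte markers summed to between 11078 and 22031 CPM with DMSO and between 4662 and 9752 CPM with ZJU-37, so the groups did not overlap. The 6 astrocyte markers ran from 889 to 1493 CPM and from 801 to 1231 CPM, the 6 microglia markers from 1336 to 2271 CPM and from 976 to 1995 CPM, the 5 neuron markers from 657 to 820 CPM and from 574 to 759 CPM, and the 4 fibroblast and vessel markers found from 40.6 to 98.7 CPM and from 24.6 to 68.4 CPM, with overlap between the groups each time. The sums of these 4 lists were nevertheless lower with ZJU-37 in all 3 pairs of same-numbered libraries, and a fit blocked on replicate number called 3 astrocyte, 2 microglia and 1 neuron markers lower. None of these markers was at 0, and Dcn alone had a mean under 1 CPM. The 3 proliferation markers Mki67, Top2a and Pcna summed to between 540 and 573 CPM with DMSO and between 1150 and 1434 CPM with ZJU-37. The part of these cell type and cycle differences in the values below was not tested. In bulk RNA, fewer cells of a type and less RNA per cell cannot be told apart.

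The network genes differed unevenly between the groups. With ZJU-37, Mycl was 6.25-fold lower, Mycn was 1.42-fold higher, the differentiation-linked repressor genes Mxd1, Mxd4 and Mxi1 were 1.55-fold, 1.36-fold and 1.28-fold lower, and Mxd3 was 1.19-fold higher. The shared partner gene Max and the Polycomb-linked Mga had log2 fold changes of -0.08 and -0.04. Log2 fold changes here are ZJU-37 over DMSO from edgeR's quasi-likelihood fit over all genes. Because the members were chosen with this contrast known, their values are a description and carry no test. Beyond the adjusted threshold of 0.05 lay 5 of the 10 members, 2 higher and 3 lower, where 15.0% of all tested genes were (9.43% higher, 5.58% lower). With the replicate number as a block 7 of 10 lay beyond it, 2 higher and 5 lower, where 32.1% of all genes did (16.2% higher, 15.9% lower). In 8 of 10 members the libraries of the groups did not overlap, 3 higher and 5 lower, as in 35.2% of all tested genes (19.0% higher, 16.2% lower). Nothing is read from these counts. The median log2 fold change of the members was -0.15, or -0.08 without Mycl, against -0.03 over all tested genes. Each of the 10 kept its sign under all 15 alternative settings and in all 3 replicate pairs.

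**Figure D1:**
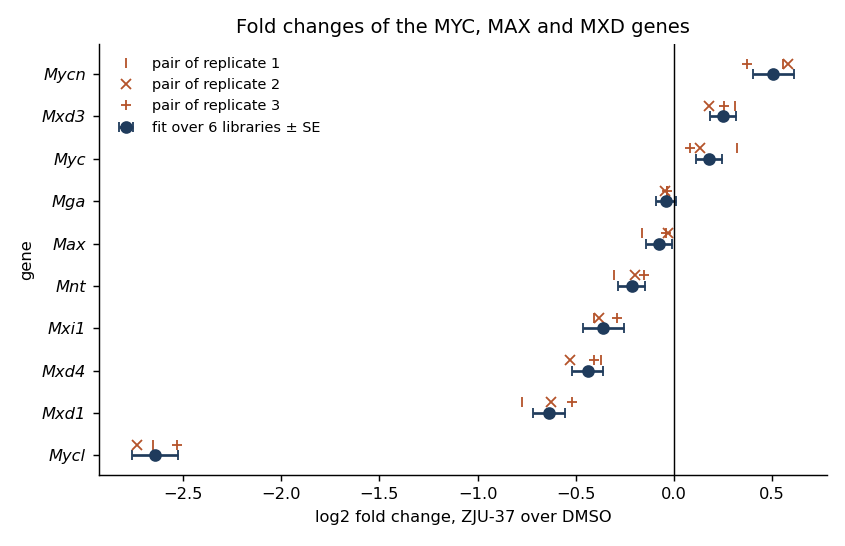
Log2 fold changes of the 10 network genes, ZJU-37 over DMSO. Circles give the fit over 6 libraries with its standard error, and the small marks above give the difference within each pair of same-numbered libraries. Mycl stands at -2.64, and the other genes lie between -0.64 and 0.51.

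Mycl encodes L-MYC, the MYC family member with the weakest transforming activity. The authors' table places it on the plus strand of chromosome 5, at 140692779 to 140698609, and like all gene positions below this is in a build that the table does not name. Its raw counts were 1501, 1754 and 1618 in DMSO replicates 1, 2 and 3 and 322, 307 and 359 in ZJU-37 replicates 1, 2 and 3. On the CPM scale these were 110, 99.0 and 85.8 against 17.4, 14.9 and 14.8. Every ZJU-37 library was far below every DMSO library, although each held more counts in total than DMSO replicate 1. The means were 98.1 ± 11.9 and 15.7 ± 1.47 CPM, which left Mycl at 16.0% of its DMSO level. The log2 fold change was -2.64 (SE 0.12), the 29th lowest of all 14670 tested genes. Within the replicate pairs it was -2.66, -2.73 and -2.53. Leaving out each library in turn gave -2.73 to -2.56, so the value rested on no single library. Mycl also varied most among the members in the DMSO group, with a coefficient of variation of 12.1% against 1.68% for Mga. The oligodendrocyte marker sum was, like Mycl, highest in DMSO replicate 1 and lowest in DMSO replicate 3, at 22031 and 11078 CPM, while among the ZJU-37 libraries it was highest in replicate 2 and Mycl in replicate 1.

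The sequence upstream of Mycl is shown because no other member changed as much. It covers the 250 bases before a RefSeq transcript start of the gene, at chr5:140559903-140560152 of GRCr8 on the plus strand, with the capitals marking TATAAA.
Mycl: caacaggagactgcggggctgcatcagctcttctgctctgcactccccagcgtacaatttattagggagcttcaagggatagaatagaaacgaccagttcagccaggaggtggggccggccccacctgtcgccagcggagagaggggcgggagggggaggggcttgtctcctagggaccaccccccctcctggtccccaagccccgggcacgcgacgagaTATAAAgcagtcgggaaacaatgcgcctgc
The TATAAA match began 30 bases before the start. Searched on both strands, TATAAA occurred in the same window of 7.19% of 10396 tested genes with a RefSeq promoter entry, and of the 8 members with an entry in Mycl alone. Mycl held no CACGTG there and 1 CACGCG, a variant E-box that 14.8% of those genes held. A match describes the letters and is no evidence of a bound factor.

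Myc, the founding proto-oncogene of the family, is listed on chromosome 7 from 102586313 to 102591240 and had the smallest log2 fold change of the MYC genes. Its expression was 63.4, 70.7 and 71.0 CPM in the DMSO libraries and 79.3, 77.6 and 75.2 CPM in the ZJU-37 libraries. The groups lay close together without overlap, at 68.4 ± 4.29 and 77.4 ± 2.06 CPM, a log2 fold change of 0.18 (SE 0.07). The pairs gave 0.32, 0.13 and 0.08, so the difference was largest in the pair of replicate 1. Mycn, the family member known from embryonic neural progenitors, is listed on chromosome 6 from 38222555 to 38228379. It was at 13.6, 13.4 and 12.9 CPM with DMSO and at 20.0, 20.0 and 16.7 CPM with ZJU-37. Its DMSO libraries were nearly equal, and the lowest ZJU-37 library, replicate 3, was still above them. The means of 13.3 ± 0.324 and 18.9 ± 1.89 CPM gave a log2 fold change of 0.51 (SE 0.11), with 0.56, 0.58 and 0.37 in the pairs. Mycn no longer passed the adjusted threshold without DMSO replicate 1, 2 or 3 or without ZJU-37 replicate 2, where the log2 fold changes were 0.52, 0.51, 0.49 and 0.49, while Myc passed it under none of the settings.

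**Figure D2:**
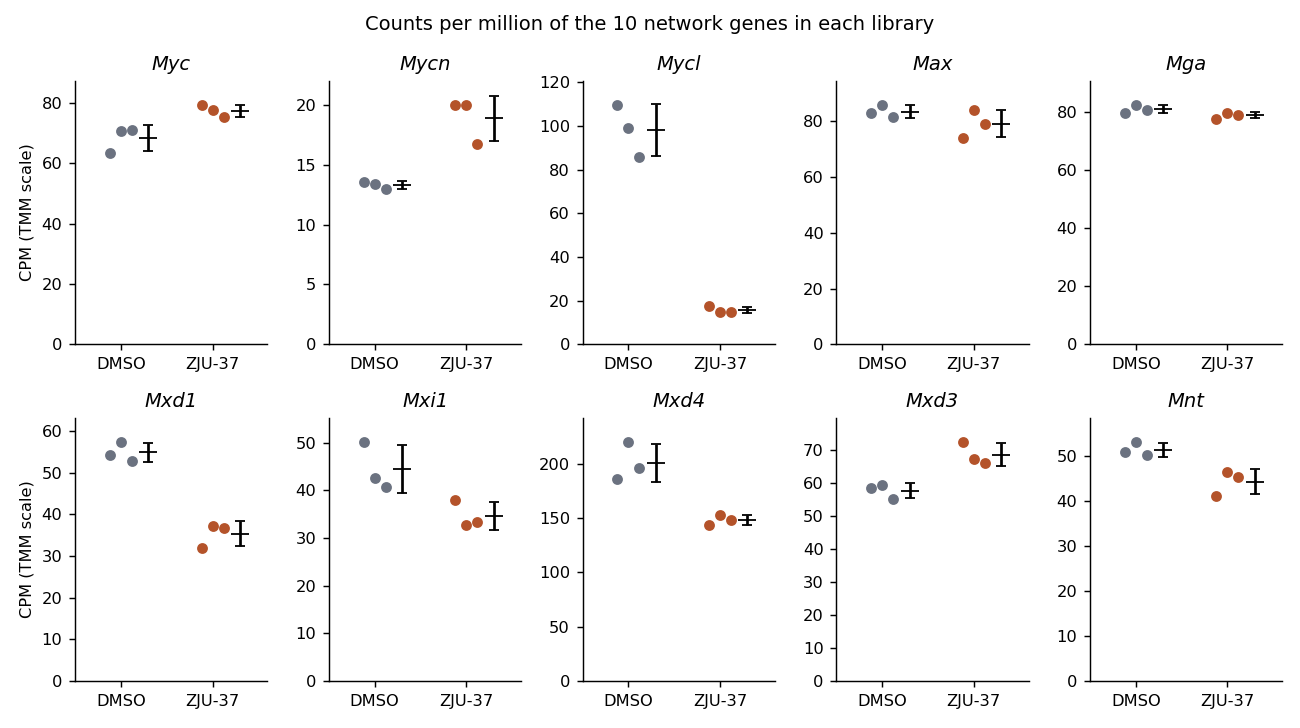
Expression of the 10 network genes in each library, in CPM on the TMM scale with axes that start at 0. Points are libraries, replicates 1 to 3 from left to right, and bars give the mean with its SD. Mycl drops from 98.1 to 15.7 CPM, and the Max and Mga points of the groups overlap.

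Levels were compared between genes on the authors' FPKM values, which are per length. With DMSO, Mxd4 was highest at 49.2 ± 4.61 FPKM, followed by Max at 41.8 ± 1.31, Mycl at 33.2 ± 3.99 and Myc at 25.3 ± 1.68 FPKM. Below these came Mxi1, Mxd1, Mnt, Mxd3, Mga and Mycn, from 15.0 down to 5.07 FPKM. Among neighbours in this order, Mxd1 and Mnt overlapped between libraries and the others did not. With ZJU-37, Max led at 39.6 ± 2.11 FPKM before Mxd4 at 36.2 ± 0.803 and Myc at 28.6 ± 1.05 FPKM. Mycl had moved from the third place to the last, at 5.31 ± 0.559 FPKM, below Mycn at 7.21 ± 0.765 FPKM. In that group Mxi1 overlapped its neighbour Mxd3, and Mxd1 overlapped Mycn.

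The MYC transcripts were thus made up differently in the groups. Of the summed FPKM of Myc, Mycn and Mycl, Mycl took 56.4%, 51.7% and 48.2% in DMSO replicates 1, 2 and 3 and 13.7%, 12.2% and 12.8% in ZJU-37 replicates 1, 2 and 3. The share of Myc went from 39.9 ± 3.96% to 69.6 ± 1.25% and that of Mycn from 7.98 ± 0.183% to 17.5 ± 1.12%. The summed level itself was 63.6 ± 2.98 FPKM with DMSO and 41.1 ± 2.23 FPKM with ZJU-37, since the higher Myc and Mycn did not make up for Mycl. Max, the obligate partner, stood at 0.658 ± 0.0223 of the MYC sum with DMSO and 0.965 ± 0.0849 with ZJU-37. The summed FPKM of the 4 MXD genes was 85.9 ± 4.84 and 67.1 ± 0.960 FPKM. Their ratio to the MYC sum was 1.35 ± 0.0631 with DMSO and 1.63 ± 0.0659 with ZJU-37, and the libraries of the groups did not overlap. These ratios follow from the same contrast that chose the genes and carry no test.

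**Figure D3:**
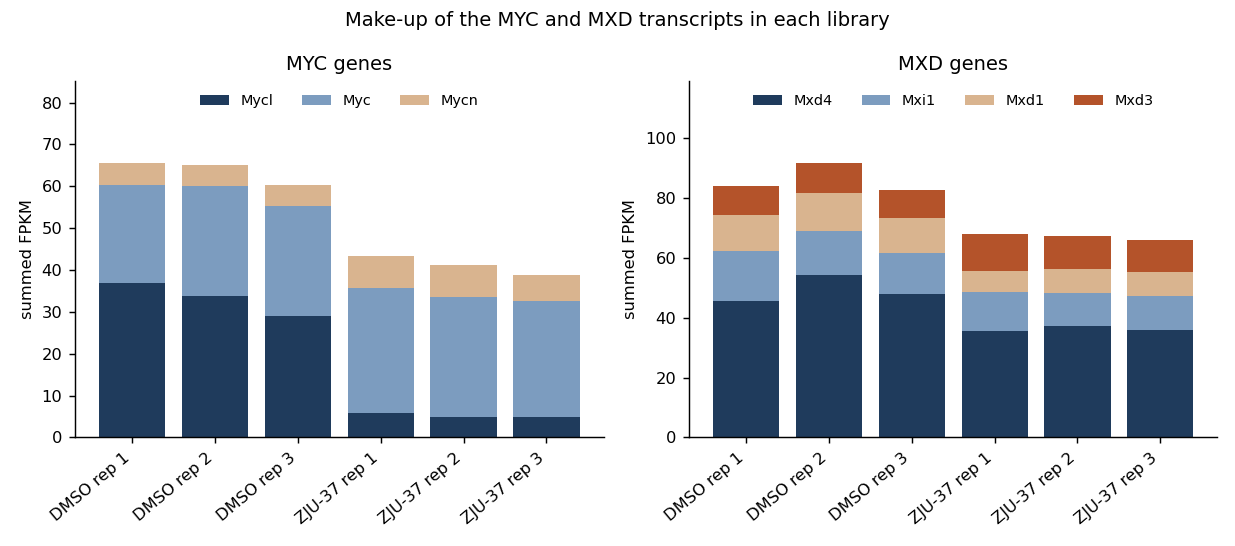
Summed FPKM of the MYC genes (left) and the MXD genes (right) in each library, stacked by gene. In the DMSO bars Mycl takes 48.2% to 56.4% of the MYC sum, and in the ZJU-37 bars 12.2% to 13.7%.

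Max itself, which dimerises with the other proteins of the network, is listed on chromosome 6 from 99984260 to 100011388. It was at 83.1, 85.9 and 81.4 CPM with DMSO and at 74.2, 84.1 and 79.3 CPM with ZJU-37. The groups overlapped, and the log2 fold change was -0.08 (SE 0.07). Mga, which carries a T-box beside its MAX-binding domain, is listed on chromosome 3 from 111699021 to 111759911. It was at 79.7, 82.4 and 80.8 CPM against 77.7, 79.8 and 78.9 CPM. It had the smallest spread and the smallest difference of the 10 genes, a log2 fold change of -0.04 (SE 0.05).

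Of the MXD repressor genes, Mxd1, on chromosome 4 from 118449882 to 118472179, differed most. It was at 54.3, 57.4 and 52.8 CPM with DMSO and at 31.8, 37.2 and 36.8 CPM with ZJU-37, and the groups were well apart. The log2 fold change was -0.64 (SE 0.08), with -0.77, -0.63 and -0.52 in the pairs, and it stayed past the adjusted threshold under all 15 alternative settings. Mxd4, on chromosome 14 from 81819415 to 81833456, had the highest FPKM of the network with DMSO. It was at 186, 220 and 196 CPM with DMSO and at 144, 152 and 148 CPM with ZJU-37. Its DMSO replicate 2 was the highest, and the groups did not overlap. The means of 201 ± 17.7 and 148 ± 4.46 CPM gave a log2 fold change of -0.44 (SE 0.08), which missed the threshold in 1 of 15 settings, without ZJU-37 replicate 3, at -0.41. Mxi1, on chromosome 1 from 274030978 to 274090071, encodes a further SIN3-recruiting repressor. It was at 50.2, 42.6 and 40.7 CPM and at 37.9, 32.7 and 33.3 CPM. The DMSO spread of 44.5 ± 5.03 CPM came mainly from replicate 1, and the log2 fold change was -0.36 (SE 0.10). Mxi1 passed the threshold with the replicate block, with DESeq2 and without ZJU-37 replicate 1, and in no other setting.

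Mxd3, on chromosome 17 from 9830332 to 9839452, went the other way, at 58.5, 59.4 and 55.2 CPM with DMSO and 72.5, 67.2 and 66.0 CPM with ZJU-37. The groups did not overlap, and the log2 fold change was 0.25 (SE 0.07), but it passed the threshold in only 3 of 15 alternative settings and in no fit that left out a library. Its count is uncertain, because the annotated span of Mxd3 contains that of Prelid1 on the opposite strand, which had 0 counts over all 6 libraries, and the counting is not stated to use strand. Within the MXD sum, Mxd3 held 11.2 ± 0.344% with DMSO and 17.0 ± 0.857% with ZJU-37, while Mxd4 held 57.2 ± 2.77% and 54.0 ± 1.38%. Mnt, a widely expressed antagonist of MYC at E-boxes, is listed on chromosome 10 from 61685241 to 61700491. It was at 50.7, 53.1 and 50.2 CPM and at 41.1, 46.4 and 45.2 CPM. The groups did not overlap, the log2 fold change was -0.22 (SE 0.07), and it passed the threshold with the replicate block alone.

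Of the 8 members with a RefSeq promoter entry, Max, Mxd4 and Mnt held the canonical E-box CACGTG in the 250 bases before the start, as did 8.29% of the tested genes with an entry. The letters around these matches are shown because the network proteins bind this element. Capitals mark CACGTG, which reads the same on both strands, and all 3 stretches are from GRCr8, at chr6:101395298-101395343 on the minus strand, chr14:80786564-80786609 on the plus strand and chr10:60197816-60197861 on the plus strand.
Max: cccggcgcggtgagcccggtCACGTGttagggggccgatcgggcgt
Mxd4: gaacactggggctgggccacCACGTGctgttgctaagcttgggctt
Mnt: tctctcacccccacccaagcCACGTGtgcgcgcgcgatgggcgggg
The match began 33 bases before the start in Max, 197 in Mxd4 and 123 in Mnt. The log2 fold changes of these 3 genes were -0.08, -0.44 and -0.22, all below 0 in each replicate pair, and their difference in size was not tested. Being below 0 was not particular to them. Of the members with an entry and no CACGTG, Mycl, Mxd1, Mxi1 and Mga were also below 0 in each pair. Their log2 fold changes were -2.64, -0.64, -0.36 and -0.04, and Mxd3 was above 0.

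The genes whose values across the 6 libraries lay nearest to those of Mycl were Capn6, Samd5, Bcas1, Ptprt and Sema5a. Nearness was the root mean square difference in log2 CPM after each gene was centred on its mean, over 12533 named genes whose mean reached 1 CPM. It was 0.11 for Capn6, a calpain without protease activity, and 0.15 for Samd5. Both were low, Capn6 at 7.79 ± 1.09 and 1.04 ± 0.162 CPM and Samd5 at 10.9 ± 2.07 and 1.38 ± 0.0761 CPM. Bcas1, a marker of newly forming oligodendrocytes, had a difference of 0.23 and went from 2051 ± 292 to 451 ± 65.5 CPM. The receptor phosphatase gene Ptprt and the semaphorin gene Sema5a, at 0.23 and 0.24, went from 20.8 ± 5.54 to 3.73 ± 0.655 CPM and from 257 ± 27.1 to 29.6 ± 1.71 CPM. These genes were selected for this pattern, so their fall is no separate finding. Gpr17, a receptor of committed precursors, had a log2 fold change of -3.43 (SE 0.20) and Myrf, a regulator of myelin genes, of -1.69 (SE 0.19) in the same libraries. Gpr17 belongs to the 7 listed OPC markers, of which 4 were called higher and 2 lower. Myrf belongs to the 7 oligodendrocyte markers, of which 2 were called lower and 5 were not called, with 1 above 0. With the replicate block 5 of these 7 were called lower.

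**Figure D4:**
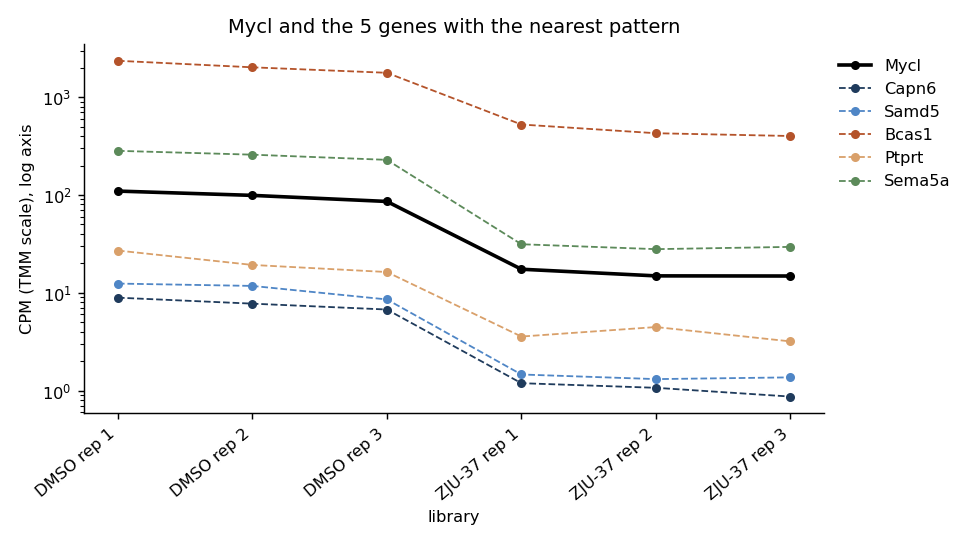
CPM of Mycl and the 5 genes nearest to it across the 6 libraries, on a log axis. Lines only join the points of 1 gene, and replicates have no order. All of them lie lower in each ZJU-37 library than in each DMSO library, and Bcas1 is the most abundant at 2051 CPM with DMSO.

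Genes that MYC is known to activate were then taken from a list of 50 that holds no member of the network. Like the lists below, it was written from general knowledge with earlier results of these data known. Its counts are therefore no independent support. ZJU-37 raised 19 of the 50 and lowered 1, and 30 did not pass the test (edgeR's quasi-likelihood test, Benjamini-Hochberg adjusted p under 0.05), where 9.43% of all tested genes were raised and 5.58% lowered. Their median log2 fold change was 0.19, against -0.03 over all tested genes, and 40 of the 50 values were above 0. With the replicate block 26 rose and 2 fell, where 16.2% of all tested genes were higher and 15.9% lower, and 13 of the 19 rose in all 15 alternative fits. Among the 19, the largest rises were those of Ccnd2, a G1 cyclin, Ung, a uracil glycosylase of DNA repair, and Slc7a5, a leucine transporter. Ccnd2 was at 121 ± 19.7 CPM with DMSO and 227 ± 25.4 CPM with ZJU-37, a log2 fold change of 0.90 (SE 0.14, adjusted p = 0.0071, edgeR). Ung rose from 19.3 ± 1.3 to 35.0 ± 2.73 CPM, by 0.86 (SE 0.09, adjusted p = 0.00155, edgeR). Slc7a5 rose from 418 ± 13.9 to 715 ± 19.7 CPM, by 0.78 (SE 0.06, adjusted p = 5.68e-04, edgeR). Slc1a5, a glutamine transporter, was at 0.84 (SE 0.22) and did not pass (adjusted p = 0.0518, edgeR), but passed in 6 of the 15 alternative fits. The replicate block was among these (adjusted p = 2.47e-04, edgeR).

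The further target genes given here were chosen for mention after their values were seen. Odc1, the first enzyme of polyamine synthesis, rose from 185 ± 2.54 to 281 ± 8.53 CPM, by 0.60 on the log2 scale, whereas Srm, of the same pathway, was at -0.81 (SE 0.35) and did not pass. The value of Srm depended on single libraries. It ran from -1.12 to -0.41 when each was left out in turn, and passed without DMSO replicate 3 alone. Prps2, Ppat, Cad and Impdh2, which act in nucleotide synthesis, rose by 0.55, 0.40, 0.40 and 0.35, while Gart and Ctps1, also of nucleotide synthesis, were at -0.03 and -0.17 and did not pass. Shmt1 and Ahcy, of folate and methionine metabolism, rose by 0.68 and 0.59. Shmt2, also of folate metabolism, was at 0.26 and passed with the replicate block alone (adjusted p = 0.00657, edgeR). The nucleolar genes Npm1, Nop56 and Fbl rose by 0.30, 0.32 and 0.26, and these calls were each lost in at least 4 of the 6 fits without a library. Tcof1, of ribosomal RNA synthesis, rose by 0.38, a call lost without DMSO replicate 1 or 3 and without ZJU-37 replicate 3. Other listed genes of the nucleolus and of ribosome synthesis did not pass in the main fit. These were Ncl at 0.23, Polr1b at 0.22, Nolc1 at 0.18, Rrs1 at 0.15 and Bop1 at 0.13, and Gnl3, Dkc1, Ppan, Mybbp1a, Pes1 and Wdr43 between -0.02 and 0.09. With the replicate block Ncl, Polr1b and Nolc1 passed (adjusted p = 0.00629, 0.0449 and 0.0353, edgeR), and Ncl also passed with DESeq2. The span of Ppat overlaps that of Paics and the span of Fbl that of Dyrk1b, so that their counts are uncertain. Ldha, the lactate dehydrogenase gene, fell from 537 ± 69.3 to 396 ± 17.5 CPM, a log2 fold change of -0.44 (SE 0.10, adjusted p = 0.0316, edgeR). The call for Ldha was lost without DMSO replicate 3 and without each of the ZJU-37 replicates, and its adjusted p ran from 0.00168 to 0.0878 over the alternatives. In the same libraries the summed CPM of the 3 proliferation markers averaged 561 with DMSO and 1257 with ZJU-37, and their part in the rise of the target genes was not tested.

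**Figure D5:**
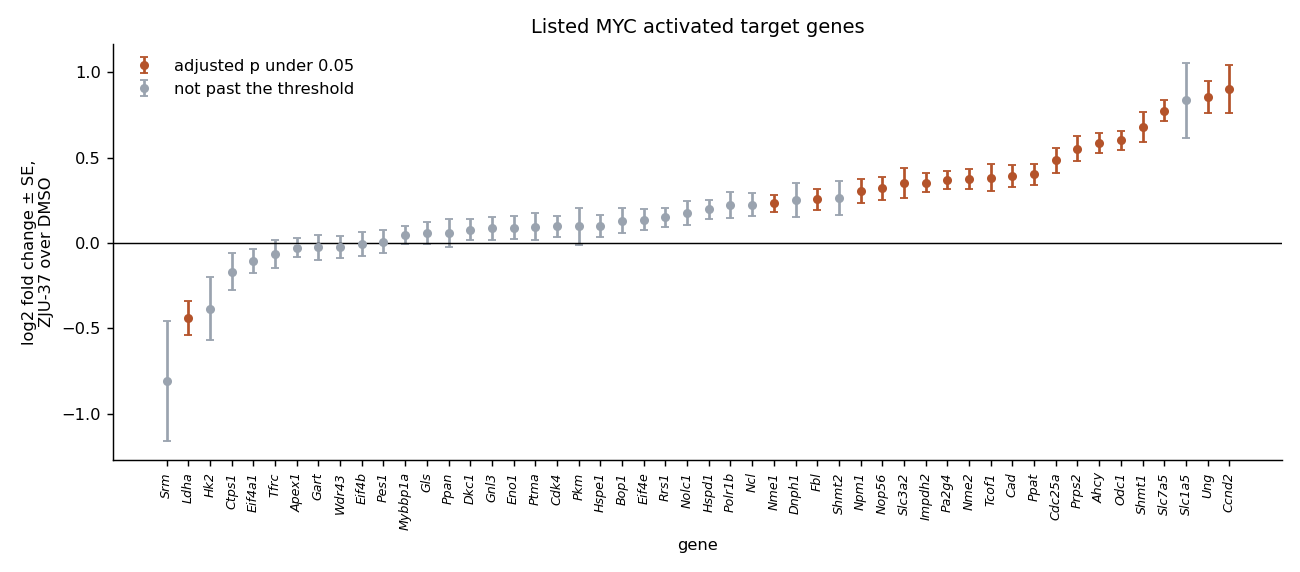
Log2 fold changes with standard errors of the 50 listed MYC activated target genes, ZJU-37 over DMSO, in order of size. Coloured points had an adjusted p under 0.05, and of these 19 lie above 0 and Ldha below.

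CACGTG was present in the 250 bases before the start in 13 of the 43 target genes with a promoter entry, 30.2% against 8.29% of the tested genes with one. Among the 18 raised targets with an entry it was present in 3, namely Ung, Slc7a5 and Shmt1. This share of 16.7% was below that of the whole target list, and the difference was not tested. The stretches around it, all on the minus strand of GRCr8, are shown because these genes rose and carry the element, at chr12:48154077-48154122, chr19:66872566-66872611 and chr10:45990405-45990450, with the E-box in capitals.
Ung: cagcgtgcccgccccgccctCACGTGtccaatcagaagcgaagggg
Slc7a5: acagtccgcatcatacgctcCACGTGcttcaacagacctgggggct
Shmt1: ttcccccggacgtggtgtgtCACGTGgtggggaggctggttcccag
The matches began 57, 179 and 89 bases before the start. These 3 rose by 0.86, 0.78 and 0.68 on the log2 scale, and the other 15 raised targets with an entry rose without the letters in this window.

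Of 6 genes that MYC is known to repress, 1 fell and 5 did not pass the test, where 5.58% of all tested genes fell. Gadd45a, a growth arrest gene, fell from 47.2 ± 8.75 to 26.2 ± 2.78 CPM, a log2 fold change of -0.85 (SE 0.15, adjusted p = 0.0122, edgeR). The call was lost without DMSO replicate 2 and without ZJU-37 replicate 3, and its adjusted p ran from 2.13e-05 to 0.0515. Cdkn1a, which encodes the cyclin-dependent kinase inhibitor p21, was at 341 ± 61.9 and 446 ± 77.2 CPM, a log2 fold change of 0.39 (SE 0.18, adjusted p = 0.217 in edgeR and 2.37e-04 with the replicate block). Cdkn1b, Cdkn2b, Ndrg1 and Ndrg2 had log2 fold changes of 0.09, 0.13, -0.30 and -0.45 and did not pass. With the block Cdkn1a rose, and Gadd45a and Ndrg2 fell, where 16.2% of all tested genes were higher and 15.9% lower.

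Among 10 proteins that bind MYC, ZJU-37 raised the transcripts of 4 and lowered 1, where 9.43% of all tested genes were raised and 5.58% lowered. Aurka, the mitotic kinase that stabilises MYCN, rose from 32.6 ± 2.77 to 62.7 ± 2.65 CPM, a log2 fold change of 0.94 (SE 0.08, adjusted p = 6.67e-04, edgeR). Wdr5, which holds MYC on chromatin, rose by 0.40, and Ruvbl2 and Ruvbl1, the helicases of its acetyltransferase complexes, by 0.29 and 0.28, with adjusted p-values of 0.0465, 0.0245 and 0.0399 in edgeR. These 3 calls were lost in 3, 3 and 6 of the 6 fits without a library. Bin1, an adaptor protein that restrains MYC and is also made in oligodendrocytes, fell from 403 ± 52.9 to 202 ± 28.9 CPM, a log2 fold change of -1.00 (SE 0.14, adjusted p = 0.00431, edgeR), in the libraries with the lower oligodendrocyte marker sums. Trrap, Ep400, Kat2a, Kat5 and Zbtb17 did not pass the test, with log2 fold changes between -0.07 and 0.16, and with the block Trrap passed at 0.16. Of 7 genes of MYC protein turnover, Skp2, a ubiquitin ligase subunit of the S phase, rose by 0.64 (SE 0.09, adjusted p = 0.00525, edgeR), and the other 6 lay between -0.14 and 0.32 and did not pass. Among these, Fbxw7, the ligase gene that marks MYC for decay, was at 0.29, and Usp28, which opposes it, was at 0.32 and passed with the block (adjusted p = 0.00271) and without DMSO replicate 1.

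Of the 5 corepressor genes through which MXD proteins act, 0 passed the test in edgeR, DESeq2 or limma-voom. At an unadjusted p under 0.05 there were 2 in edgeR (Sin3a and Sin3b), 1 in DESeq2 and 2 in limma-voom, and with the replicate block Sin3b passed. Sin3a and Sin3b had log2 fold changes of 0.15 and -0.16, and Hdac1, Hdac2 and Ncor1 lay between -0.02 and 0.03. Of the 10 genes of the Polycomb complex that contains MGA, 3 rose and 7 did not pass, where 9.43% of all tested genes rose. E2f6, its DNA-binding E2F factor, rose by 0.42 (SE 0.07, adjusted p = 0.00729, edgeR), Tfdp1, the E2F dimer partner, by 0.39 (adjusted p = 0.0253) and Cbx3, a heterochromatin protein, by 0.38 (adjusted p = 0.0121). The calls of Tfdp1 and Cbx3 were lost without DMSO replicate 2 or 3, and that of Tfdp1 also without ZJU-37 replicate 3. Rybp, a RING1 binding protein, was at -0.41 (SE 0.11, adjusted p = 0.0535 in edgeR and 0.00353 with the replicate block), passed in 3 of the 15 alternative fits, and the other 6 lay between -0.14 and 0.15.

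The parallel branch of the network uses MLX in place of MAX and senses glucose through MLXIP. Mlx and Mlxip had log2 fold changes of 0.02 (SE 0.07) and -0.15 (SE 0.07) and did not pass the test. Arrdc4, a target of this branch, fell from 49.0 ± 2.87 to 30.0 ± 1.25 CPM, a log2 fold change of -0.71 (SE 0.07, adjusted p = 0.00127, edgeR). Txnip, its other listed target, was at 130 ± 16.9 and 82.8 ± 17.6 CPM, a log2 fold change of -0.65 (SE 0.17, adjusted p = 0.0508 in edgeR and 1.32e-04 with the replicate block), and it passed in 9 of the 15 alternative fits, DESeq2 and limma-voom among them.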

How the data were processed

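RNA-seq of rat OPCs was analysed from 1 deposited table of the whole series, grouped by the treatment in the sample labels. The authors mapped and assembled reads and counted them per gene; the submitters' processing notes name HISAT2 2.0.5, StringTie 1.3.3b and featureCounts 1.5.0, and the genome build is not given in the sources used here. The deposited raw counts were not normalized, and the authors' FPKM scale them by gene length and library size. The table also holds the authors' DESeq2 comparison (log2 fold changes and p-values), which was not used.

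Counts were fitted in R 4.3.3 with edgeR 4.0.16 (filterByExpr, TMM, robust quasi-likelihood fit, quasi-likelihood test, Benjamini-Hochberg threshold 0.05) over 14670 genes, with no covariate. DESeq2 1.42.0, limma 3.58.1 (voom, and log2 of FPKM plus 1 or plus 0.1), other scalings and filters (no filter, or a minimum of 10 in each library), a threshold of 0.01, the replicate number as a block and the removal of each library were alternatives. The network genes and all gene lists were chosen with earlier results of these data known. Named were all 10 members, the 3 largest changes past the threshold in each direction from each list, the genes of the repressed, partner and MLX lists, and the 5 genes nearest to Mycl. Further MYC targets, with values past and not past the threshold, were added after the values were seen.

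Replicate numbers in the labels pair the libraries: over genes, which are not independent replicates, deviations from the group means correlated at 0.39, 0.31 and 0.33 for same-numbered libraries and at -0.27 to -0.01 for the others. Replicates of a group differed beyond counting noise (chi-square per degree of freedom at least 11.3). Tested on simulated data for this comparison with 200 changed among 14538 genes, edgeR recovered 92% with 8% false calls, and with the block 88.5% with 17.3% false calls. Over 14670 genes, DESeq2 recovered 93.5% with 22.4% false and limma-voom 92.5% with 7.04% false. The simulated libraries held no effect of replicate number, unlike the real ones. The simulation therefore cannot show whether the fit with or without the block performs better on these data. Promoter sequences came from RefSeq (GRCr8), matched by symbol for 8 of the 10 members (not Myc and Mycn). The 250 bases before the start were searched on both strands, and where a gene had several entries a match in any of them counted.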

Additional observations from a re-analysis of the deposited data

How the results depend on the processing

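The log2 fold changes of the 10 members kept their direction under all 15 alternative fits, and that of Mycl ran from -2.73 to -2.44. Over all genes, 1383 were higher and 818 lower with ZJU-37. With the replicate number as a block there were 2371 and 2334, at an adjusted p under 0.01 there were 739 and 314, and without each library in turn there were 858 to 1259 and 374 to 668. The block thus moved the balance of calls towards lower genes, and the cause was not tested. The count of raised MYC activated targets stayed between 13 and 19 without each library. The count of lowered ones, 1, was 2 with the block, 0 at the threshold of 0.01 and 0 to 1 without each library. The 4 raised binding partners became 1 at the threshold of 0.01 and 1 to 3 without each library, where fewer libraries entered the fit. For the members and listed genes named above, changes of call under the block stand beside their values, and the block turned no direction among the listed results. Depth limits single genes little here, since each member had at least 186 counts in every library.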
